A study of Mus musculus with 34 samples.

Results

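The genes described here are the constant region genes of the immunoglobulins and the gene of the J chain, 9 genes in all, measured by RNA sequencing in mouse blood. They were matched by gene symbol to the Ensembl gene IDs of the deposited count tables, and all 9 were found among 54532 gene IDs. The 9 are Ighm, Ighd, Ighg2b, Ighg2c and Igha (heavy chains of IgM, IgD, IgG2b, IgG2c and IgA), Igkc (kappa light chain), Iglc1 and Iglc2 (lambda light chains) and Jchain. The tables hold 13 immunoglobulin constant genes, so 8 of the 13 are described in full, and the other 5 by counts.

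The libraries came from wild-type mice in 4 groups. Mice received ALY688 with LPS (7 libraries), LPS alone (4 libraries), ALY688 alone (10 libraries) or PBS (9 libraries). The series title calls ALY688 an agonist of the adiponectin receptor, and LPS (lipopolysaccharide) is a bacterial product that activates innate immune cells. The sources used here do not give strain, sex, age, dose or time of sampling. The study sought blood markers of ALY688 action and, separately, asked how ALY688 acts in mice given a sublethal amount of LPS. The series text names plasma for the first aim and whole blood for the second, and the tissue label reads blood throughout. It does not say whether mice with and without LPS belonged to 1 experiment. If they did not, comparisons of LPS-treated mice with mice that had no LPS also compare experiments, and the 2 cannot be told apart.

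B cells carry IgM and IgD on their surface, made from one heavy chain transcript by alternative splicing, together with a kappa or lambda light chain. After class switching a cell makes IgG, IgA or IgE from a downstream constant gene. Plasma cells and plasmablasts secrete antibody and make large amounts of heavy and light chain mRNA. The J chain joins IgM and IgA subunits into polymers through a short tailpiece at the end of the secreted heavy chain.

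The end of the coding sequence shows which heavy chains carry that tailpiece. The last 60 coding bases before the stop codon of the secreted forms follow, 5′ to 3′, from GENCODE release M21 on GRCm38, all on the minus strand of chromosome 12. Capitals mark the second-last codon where it encodes the cysteine that bonds with the J chain. Ighm lies at chr12:113420870-113420929, Igha at chr12:113258771-113258830 and Ighg2b at chr12:113306392-113306451.
Ighm: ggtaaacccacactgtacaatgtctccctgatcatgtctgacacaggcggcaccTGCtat
Igha: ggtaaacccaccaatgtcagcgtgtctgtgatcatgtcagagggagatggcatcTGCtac
Ighg2b: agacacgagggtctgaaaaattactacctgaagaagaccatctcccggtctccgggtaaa
The Ighm and Igha ends hold the cysteine codon, and the Ighg2b end does not.

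The lambda constant genes resemble each other closely enough to bear on counting. The last 60 coding bases of Iglc1, Iglc2 and Iglc3 follow, on the minus strand of chromosome 16, with capitals where a base differs from Iglc2. Iglc1 lies at chr16:19061755-19061814, Iglc2 at chr16:19198539-19198598 and Iglc3 at chr16:19065368-19065427.
Iglc1: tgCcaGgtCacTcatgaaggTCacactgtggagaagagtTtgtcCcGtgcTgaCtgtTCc
Iglc2: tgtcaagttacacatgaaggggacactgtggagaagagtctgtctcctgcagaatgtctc
Iglc3: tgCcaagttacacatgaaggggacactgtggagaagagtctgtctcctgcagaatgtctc
Iglc1 differed from Iglc2 at 13 of these bases and Iglc3 at 1. Of all stretches of 50 bases in the Iglc2 transcripts, 7.65% also occurred in Iglc3. Ighg2c shared 5.49% of its stretches with another immunoglobulin gene, mostly Ighg2b, and Ighg2b shared 4.15%. The sources used here do not say how reads shared by several genes were counted, so values of Iglc2, Ighg2b and Ighg2c are uncertain for reads that short. No stretch of 100 bases was shared by any of these genes, and the read length is not stated in the labels. Ighm, Ighd, Igha, Igkc, Iglc1 and Jchain shared no stretch of 50 bases with another immunoglobulin gene.

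On GRCm38, the heavy chain genes lie in one cluster on the minus strand of chromosome 12: Ighm at chr12:113418558-113422730, Ighd at chr12:113406604-113416324, Ighg2b at chr12:113302965-113307933, Ighg2c at chr12:113285325-113288932 and Igha at chr12:113254830-113260236. Igkc lies at chr6:70726435-70726966, Iglc1 at chr16:19061618-19062071 and Iglc2 at chr16:19198396-19200351. Jchain lies at chr5:88519809-88527891. Counts covered the exons of each gene.

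Depth was 9554964 to 17338214 counts per library. Levels are CPM, counts relative to the library total, scaled by TMM, which corrects for the share of counts that a few abundant genes take. Globin genes took 26.3% to 54.3% of counts with ALY688+LPS and 18.5% to 43.7% with LPS, against 42.2% to 60.8% with ALY688 and 45.2% to 64.4% with PBS. The 3-count floor lay between 0.0725 and 0.86 CPM, and covers counting error only. In 6 libraries fewer than 16000 genes had a count: PBS mice 5, 6 and 9, ALY688 mouse 7 and ALY688+LPS mice 6 and 8. Fold changes are from edgeR's quasi-likelihood test, with p-values adjusted over all genes tested by the Benjamini-Hochberg method and 0.05 as the threshold. Their SEs were derived from the log2 change and the F statistic of that test. Labels number the mice within a group, and within a group 1 library stands for 1 animal.

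Per kilobase of exon, Igkc and Ighm were the most abundant of the 9 genes in every group. Igkc averaged 189 ± 81.9 CPM per kb with ALY688+LPS, 133 ± 56.8 with LPS, 631 ± 179 with ALY688 and 557 ± 198 with PBS (SD, n = 7, 4, 10 and 9). Ighm averaged 93.5 ± 53.8 CPM per kb with ALY688+LPS, 67.1 ± 27.3 with LPS, 389 ± 95.3 with ALY688 and 339 ± 107 with PBS. In PBS blood Ighd followed at 123 ± 47.7 CPM per kb, then Iglc2 at 80.8 ± 26.0 and Iglc1 at 48.1 ± 16.9. Igha (4.74 ± 1.36), Ighg2b (0.66 ± 0.453), Jchain (0.616 ± 0.339) and Ighg2c (0.0329 ± 0.0586) were the lowest there. Ighg2b and Jchain did not differ beyond their spread in this order. In LPS blood Igha reached 19.3 ± 9.96 CPM per kb, beside Ighd at 14.1 ± 4.17, Iglc2 at 13.2 ± 6.5 and Iglc1 at 13.1 ± 5.69, which overlapped within their SDs.

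**Figure D1:**
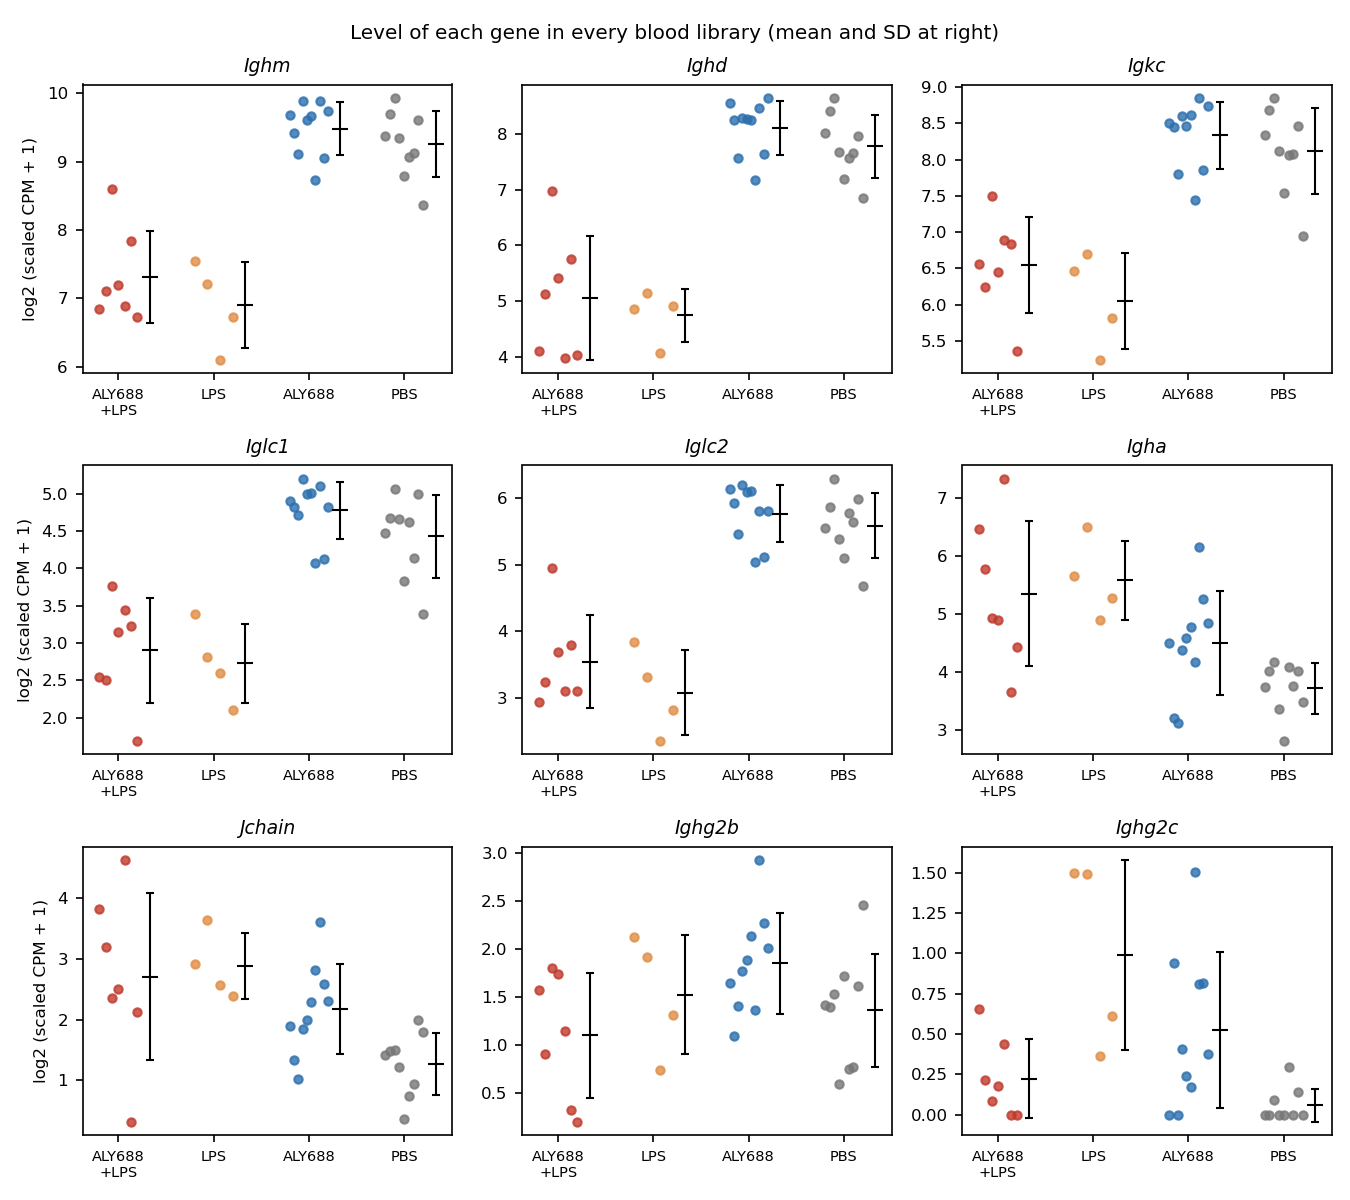
Level of each of the 9 genes in every library, as log2 (TMM-scaled CPM + 1) on the vertical axis, by group, with the mean and SD to the right of each group's points. Ighm, Ighd, Igkc, Iglc1 and Iglc2 sit lower in both LPS-treated groups, and Igha and Jchain sit higher with LPS than with PBS.

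In LPS blood, the genes of the B cell receptor's chains fell and the genes of IgA and the J chain rose relative to PBS. Of 8 genes tested, 2 rose (Igha and Jchain) and 5 fell (Ighm, Ighd, Igkc, Iglc1 and Iglc2). Of all 12353 genes tested, 20.9% rose and 17.9% fell. The median log2 fold change was -2.03 over the 8 genes and -0.04 over all genes. Without TMM, scaled by library totals alone, the median of all genes moved to 1.04, 5600 genes rose and 296 fell, against 2577 and 2208 with TMM. On that scale 3 of the 8 genes rose (Igha, Jchain and Ighg2b) and 2 fell (Ighd and Iglc2).

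IgM's heavy chain gene, Ighm, had 187, 147, 67.7 and 105 CPM in the 4 LPS mice, against 330 to 977 CPM (median 648) in PBS mice. All 4 LPS values lay below all 9 PBS values. Ighm fell 5.26-fold (log2 -2.39 ± 0.39 SE, adjusted p = 0.000182). Ighd, the IgD heavy chain gene, had 28.0, 34.5, 15.8 and 29.2 CPM with LPS, against 115 to 400 CPM (median 204) with PBS. The groups did not overlap, and Ighd fell by 3.18 ± 0.37 on the log2 scale (adjusted p = 8.43e-06).

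The kappa gene Igkc had 87.6, 103, 36.8 and 55.1 CPM with LPS, against 122 to 460 CPM (median 276) with PBS. These groups did not overlap either, and Igkc fell by 2.13 ± 0.38 on the log2 scale (adjusted p = 0.000413). Iglc1 fell by 1.93 ± 0.33 (adjusted p = 0.000239) and Iglc2 by 2.66 ± 0.33 (adjusted p = 1.48e-05), both without overlap. Under scaling by library totals alone, Ighm (adjusted p = 0.0556), Igkc (0.142) and Iglc1 (0.191) were no longer called by edgeR, with the same direction. In bulk blood, fewer B cells, less mRNA per B cell and more RNA from other cells cannot be told apart.

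Igha had 49.4, 89.2, 29.0 and 38.0 CPM in LPS mice, against 6.02 to 17.1 CPM (median 12.5) in PBS mice. The lowest LPS value stood above the highest PBS value. Igha rose 3.84-fold (log2 1.94 ± 0.26, adjusted p = 2.51e-05). Jchain had 6.55, 11.4, 4.97 and 4.27 CPM with LPS, against 0.287 to 2.97 CPM (median 1.66) with PBS, again without overlap. These were 158, 472, 52 and 89 counts with LPS, against 1 to 29 counts with PBS. Jchain rose 4.05-fold (log2 2.02 ± 0.36, adjusted p = 0.000346).

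Both rises lost their call when each library's globin percentage entered edgeR's fit: Igha stood at log2 0.65 (adjusted p = 0.237) and Jchain at 0.82 (adjusted p = 0.34), while the 5 falls kept theirs. The globin percentages of the LPS and PBS libraries did not overlap, so treatment and globin share cannot be told apart in that fit. Both genes were called higher, at log2 changes of 1.59 to 2.17 for Igha and 1.70 to 2.19 for Jchain, whichever single library was left out.

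The IgG genes were low. Ighg2b had 81, 115, 7 and 31 counts in LPS mice, against 3 to 29 counts in PBS mice, and its log2 difference of 0.24 ± 0.49 was not called (adjusted p = 0.724, 95% interval -0.71 to 1.19). Ighg2c had 44, 75, 3 and 11 counts in LPS mice, against 0 or 1 count in every PBS mouse and 3 counts over all 9. It did not pass the filter on low counts in this comparison and was not tested. With no filter beyond 1 count, and with all 4 groups in one fit, edgeR called it higher with LPS.

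ALY688 combined with LPS, set against ALY688 alone, gave falls in the same B cell receptor chains. Of 8 genes tested, 6 fell and 0 rose. Of all 12266 genes tested, 26.6% fell and 26.4% rose, and the median log2 change was -1.84 over the 8 genes and -0.05 over all genes. Scaled by library totals alone, 1845 genes rose and 1204 fell, against 3236 and 3268 with TMM. Ighm had 105 to 387 CPM (median 137) with ALY688+LPS, against 424 to 946 CPM (median 794) with ALY688. The groups did not overlap, and Ighm fell by 2.06 ± 0.29 on the log2 scale (adjusted p = 7.74e-06).

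Ighd had 14.9 to 124 CPM (median 34.2) with ALY688+LPS, against 143 to 396 CPM (median 306) with ALY688, and fell by 2.75 ± 0.42 (adjusted p = 2.31e-05). Igkc had 40.3 to 180 CPM (median 93.0) with ALY688+LPS, against 174 to 462 CPM (median 357) with ALY688. In 1 ALY688+LPS library the value lay within the ALY688 range, and Igkc fell by 1.74 ± 0.27 (adjusted p = 1.77e-05). Iglc1 fell by 1.94 ± 0.28 and Iglc2 by 2.20 ± 0.30, without overlap. Ighg2b fell by 1.08 ± 0.42 (adjusted p = 0.0368), with overlap. The Ighg2b call was lost without any 1 of 7 libraries (ALY688 mice 6, 8 and 9, ALY688+LPS mice 3, 7, 8 and 10; adjusted p up to 0.0801), when mouse number entered as a block (adjusted p = 0.127), without TMM and without the filter on low counts.

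The SDs of the Igha and Jchain levels were higher with ALY688+LPS than in the other 3 groups, at 52.7 and 7.99 CPM. Igha had 11.6 to 161 CPM (median 29.4), against 7.69 to 70.4 CPM (median 22.3) with ALY688. Jchain had 0.247 to 23.8 CPM (median 4.69), against 1.04 to 11.2 CPM (median 3.45) with ALY688. Their ranges overlapped and neither was called, at log2 1.09 ± 0.49 for Igha (adjusted p = 0.0686) and 1.06 ± 0.52 for Jchain (adjusted p = 0.0952). Without the libraries with few detected genes, edgeR called both higher, at 1.45 (adjusted p = 0.0218) and 1.5 (adjusted p = 0.0155). DESeq2 called Igha (adjusted p = 0.0376) and not Jchain, and so did edgeR with all 4 groups in one fit (Igha adjusted p = 0.0283). Leaving out ALY688 mouse 8 or ALY688+LPS mouse 8 brought both past the threshold (adjusted p of 0.018 and 0.0265 for Igha, 0.0289 and 0.0304 for Jchain). With globin percentage in the fit the differences were -0.0489 and -0.0237. The libraries at the ends were the same for both genes: mouse 7 was highest, with 4496 Igha and 666 Jchain counts, and mouse 8 lowest, with 47 and 1.

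**Figure D2:**
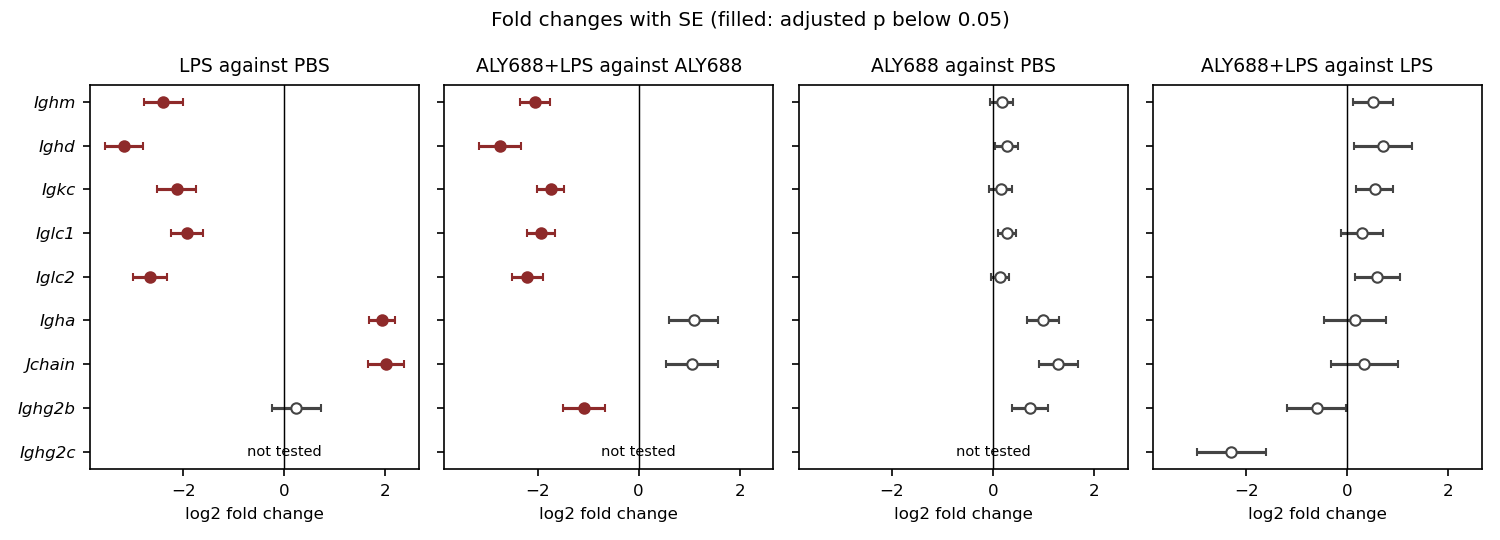
Log2 fold changes of the genes tested in 4 comparisons, with SE as bars and filled points where edgeR's adjusted p was below 0.05. Ighg2c was tested only for ALY688+LPS against LPS and is marked as not tested in the other panels. The 5 receptor chain genes are filled and left of 0 in both comparisons with LPS, and no point is filled in either ALY688 comparison.

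Counts of heavy chain constant genes within a library do not depend on scaling between libraries. Of these counts, Igha took 3.96% to 53.1% (median 14.5%) with ALY688+LPS and 18.2% to 31.9% with LPS, against 0.83% to 5.11% (median 2.11%) with ALY688 and 1.02% to 2.20% (median 1.32%) with PBS. Ighm took 38.9% to 77.5% with ALY688+LPS and 52.5% to 68.8% with LPS, against 66.6% to 73.8% with ALY688 and 69.9% to 75.0% with PBS. The levels of Ighm and Ighd fell in both comparisons with LPS, and the Igha shares also take in those falls. The 4 Ighg genes together took at most 3.13% of heavy chain counts in any library. Ighe, the IgE gene, had 12 counts in LPS mouse 6, 2 in ALY688 mouse 5 and 0 in all other libraries.

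**Figure D3:**
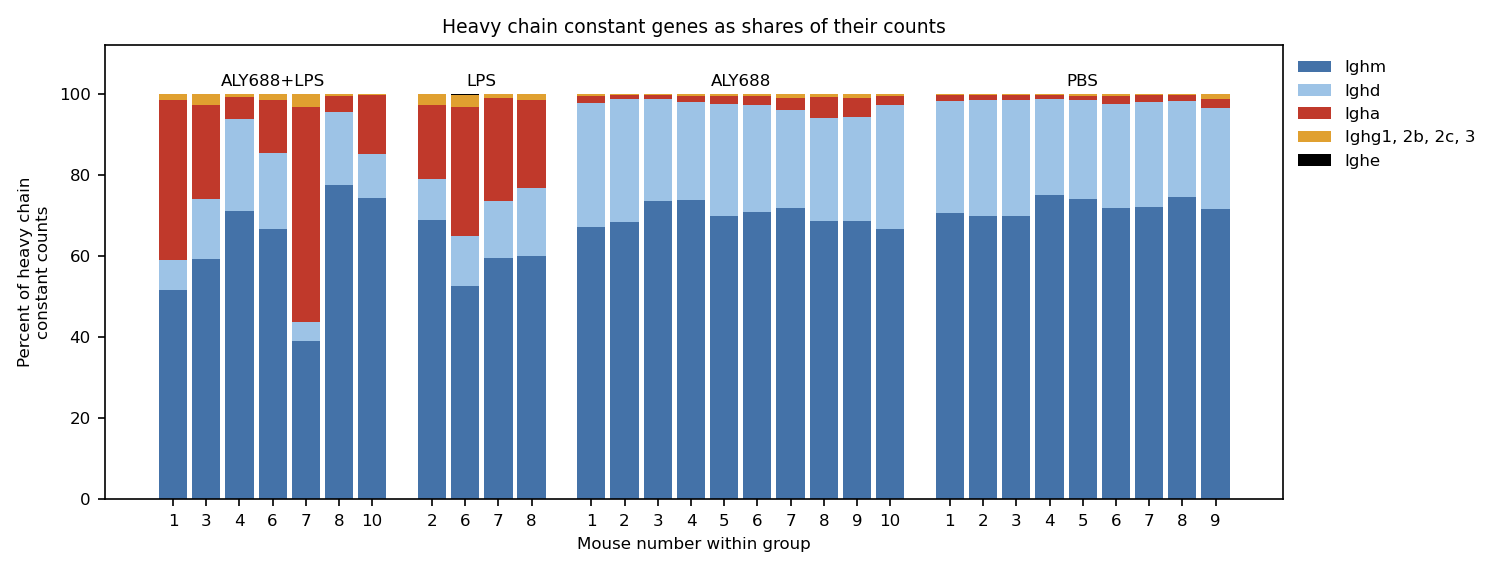
Share of heavy chain constant counts (percent, vertical axis) taken by each gene in every library, by group and mouse number. The Igha share is 18.2% to 31.9% in the 4 LPS libraries and at most 2.20% in the 9 PBS libraries.

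Ratios of counts within a library were compared by exact two-sided permutation tests over libraries, 20 tests in all, with Benjamini-Hochberg adjustment over the 20. There were 26.5, 60.8, 42.8 and 36.1 Igha counts per 100 Ighm counts in LPS mice, against 1.37 to 3.07 (median 1.87) in PBS mice. The groups did not overlap (log2 difference 4.31, exact p = 0.0014, adjusted p = 0.004). That p is the smallest that 4 against 9 libraries allow. With ALY688+LPS there were 5.11 to 136 Igha counts per 100 Ighm counts (median 19.6), against 1.21 to 7.44 (median 3.10) with ALY688 (log2 difference 3.05, exact adjusted p = 0.00206). Both ratios also take in the lower level of Ighm, which fell by log2 2.39 and 2.06 in these comparisons. The level of Igha was called higher with LPS against PBS. It was not called for ALY688+LPS against ALY688 (log2 1.09, edgeR adjusted p = 0.0686).

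Ighd also changed relative to Ighm. There were 15.0, 23.5, 23.3 and 27.8 Ighd counts per 100 Ighm counts with LPS, against 31.5 to 41.0 (median 35.5) with PBS (log2 difference -0.71, exact adjusted p = 0.004). With ALY688+LPS there were 12.6 to 32.0 (median 23.3), against 32.8 to 46.2 (median 37.3) with ALY688 (log2 difference -0.93, exact adjusted p = 0.00103, from the smallest p that 7 against 10 libraries allow). Neither pair of groups overlapped.

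Relative to Cd79a, which encodes the signalling chain CD79a of the B cell receptor, both Igkc and Jchain were higher with LPS. Cd79a itself was lower, at 35.9 ± 15.2 CPM with LPS against 229 ± 86.0 CPM with PBS (SD, n = 4 and 9). It averaged 48.7 ± 31.7 CPM with ALY688+LPS against 254 ± 66.1 CPM with ALY688 (n = 7 and 10). The ratios therefore also take in the lower level of Cd79a, and Igkc itself fell in both comparisons. There were 165, 237, 191 and 200 Igkc counts per 100 Cd79a counts with LPS, against 110 to 164 (median 128) with PBS (log2 difference 0.60, exact adjusted p = 0.004). There were 12.3, 26.2, 25.7 and 15.5 Jchain counts per 100 Cd79a counts with LPS, against 0.192 to 2.25 (median 0.603) with PBS (log2 difference 4.86, exact adjusted p = 0.004). With ALY688+LPS against ALY688, the log2 difference was 0.73 for Igkc to Cd79a (exact adjusted p = 0.0024) and 3.05 for Jchain to Cd79a (exact adjusted p = 0.009). Lambda counts (Iglc1 plus Iglc2) per 100 Igkc counts were 12.3 to 24.3 (median 18.8) with ALY688+LPS, against 19.2 to 30.8 (median 26.2) with ALY688 (log2 difference -0.41, exact adjusted p = 0.0272). That call was lost without the libraries with few detected genes (adjusted p = 0.0522), and without ALY688+LPS mouse 1 (0.0735) or mouse 7 (0.063). For LPS against PBS the lambda ratio was not called (log2 difference -0.29, exact adjusted p = 0.147).

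**Figure D4:**
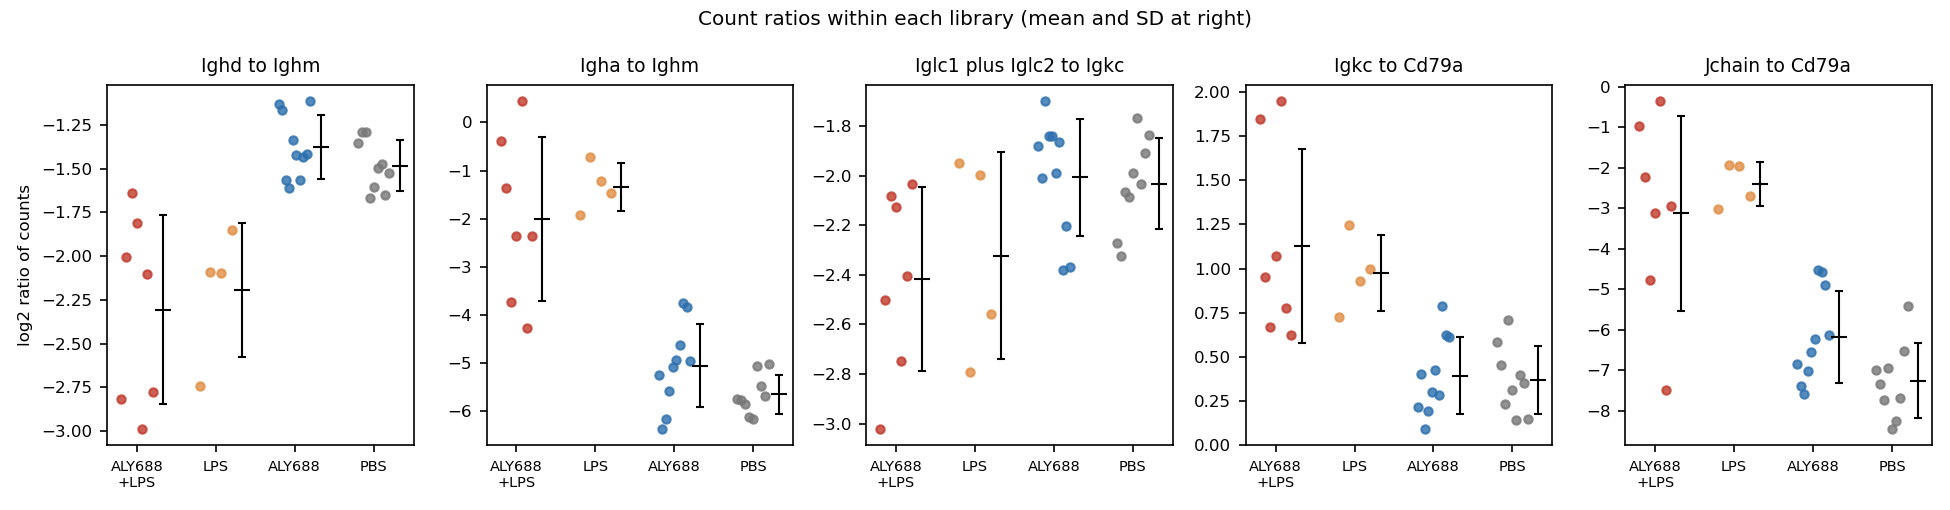
Log2 ratios of counts within each library (0.5 added to each count), by group, with mean and SD at the right. The Igha to Ighm and Jchain to Cd79a ratios of the 4 LPS libraries lie above all 9 PBS libraries, and the Ighd to Ighm ratios below them.

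ALY688 alone against PBS gave no call for any of the 8 genes tested, nor for any of 11708 genes (0% called, 1250 genes at unadjusted p below 0.05). DESeq2 and limma-voom also called 0 genes. All 8 genes had positive log2 differences, with a median of 0.28, against 0.03 over all genes. Jchain had 1.04 to 11.2 CPM (median 3.45) with ALY688, against 0.287 to 2.97 CPM (median 1.66) with PBS, a log2 difference of 1.30 ± 0.39 (unadjusted p = 0.00287, edgeR adjusted p = 0.442). Igha had 7.69 to 70.4 CPM (median 22.3) with ALY688, against 6.02 to 17.1 CPM (median 12.5) with PBS, a log2 difference of 0.99 ± 0.32 (unadjusted p = 0.00537, edgeR adjusted p = 0.442). The ranges overlapped for both.

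For the receptor chain genes the ALY688 differences were small, with 95% intervals (from the SE, normal approximation) on both sides of 0. Ighm differed by log2 0.17 (interval -0.28 to 0.62), Ighd by 0.27 (-0.18 to 0.72), Igkc by 0.15 (-0.30 to 0.61) and Iglc2 by 0.13 (-0.22 to 0.49). These 4 changed sign with globin percentage in the fit. Iglc1 differed by 0.28 (-0.07 to 0.64) and kept its sign. The intervals of Jchain (0.54 to 2.05) and Igha (0.37 to 1.61) lay above 0, though neither was called. Ighg2b differed by 0.73 (unadjusted p = 0.0534, edgeR adjusted p = 0.442). Its interval (0.03 to 1.43) lay above 0 only by the normal approximation, as the unadjusted p of edgeR's test was above 0.05. Ighg2c had 0 to 11 counts with ALY688 (53 over 10 mice), against 0 or 1 with PBS (3 over 9 mice), and did not pass the filter. The Jchain to Cd79a ratio was 0.499 to 4.24 per 100 (median 1.19) with ALY688, against 0.192 to 2.25 (median 0.603) with PBS, and missed the threshold (log2 difference 1.08, exact p = 0.0389, adjusted p = 0.0778). It passed without PBS mouse 9 (exact adjusted p = 0.0236) and without ALY688 mouse 2 (0.0444) or mouse 3 (0.0435). The Igha to Ighm ratio was 1.21 to 7.44 per 100 with ALY688, against 1.37 to 3.07 with PBS (log2 difference 0.60, exact adjusted p = 0.139), and passed without ALY688 mouse 2 (0.0409).

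ALY688 with LPS against LPS alone gave no call for the 9 genes tested, nor for any of 12741 genes (0% called, 463 at unadjusted p below 0.05; DESeq2 and limma-voom called 0). Ighg2c stood farthest from 0, at 14, 3, 1, 1, 10, 0 and 0 counts with ALY688+LPS, against 44, 75, 3 and 11 with LPS. The log2 difference was -2.30 ± 0.68 (unadjusted p = 0.00514, edgeR adjusted p = 0.913), and the ranges overlapped. Ighg2c was near the filter on low counts. It did not pass, and was not tested, without ALY688+LPS mouse 1 or with globin genes removed before scaling. Ighm differed by log2 0.51 (interval -0.26 to 1.29), Ighd by 0.70 (-0.43 to 1.82), Igkc by 0.54 (-0.18 to 1.27), Igha by 0.15 (-1.06 to 1.36) and Jchain by 0.33 (-0.96 to 1.63). Ighm, Ighd, Igkc, Iglc1, Iglc2 and Igha turned negative when scaled by library totals alone. None of the 5 ratios passed the threshold in this comparison.

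Whether the LPS difference depended on ALY688 was tested as an interaction. No member was called by edgeR, nor any of 13476 genes (0% called, 1217 at unadjusted p below 0.05). DESeq2 called 4 genes, including Ighg2c. Ighg2c had the largest interaction of the 9, at log2 -5.53 ± 1.18 (edgeR adjusted p = 0.336, DESeq2 adjusted p = 0.0375), on counts of 0 to 75 per library. The PBS group held 3 of these counts over 9 mice, with 6 libraries at 0. The size of this value therefore rests on a reference group at the floor, and Ighg2c was too low to be tested in either comparison with PBS.

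Other genes of the B lineage were also mostly lower with LPS. Of 20 B cell receptor and surface genes, 15 fell and 1 rose with LPS against PBS (median log2 -2.28), and 16 fell and 2 rose with ALY688+LPS against ALY688 (median -2.05). Fcer2a, the low-affinity IgE receptor, fell by 3.55 ± 0.38 with LPS (adjusted p = 3.6e-06), to 8.76 ± 3.75 CPM against 98.9 ± 37.7 CPM with PBS (SD, n = 4 and 9). Cd79b, the partner of CD79a, fell by 2.68 ± 0.37. Of 12 B cell transcription factors, 9 fell and 2 rose with LPS against PBS. The 2 that rose were Pou2f2 and Bcl6, which other blood cells also express.

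Plasma cell and antibody secretion genes did not move in one direction. Of 15 tested with LPS against PBS, 5 rose and 3 fell (median log2 0.29). Xbp1, a transcription factor of the unfolded protein response, rose by 1.63 ± 0.18 and Hspa5, an endoplasmic reticulum chaperone, by 1.30 ± 0.19. Irf4, a transcription factor of plasma cells and activated lymphocytes, fell by 2.06 ± 0.32. Xbp1 and Hspa5 are expressed in many cell types. Of 4 tested genes of receptor gene assembly and class switching, 1 rose (Ung) and 1 fell (Vpreb3). Of the other immunoglobulin constant genes only Iglc3 passed the filter, and it fell by 2.95 ± 0.40 (adjusted p = 3e-05). Among receptors for antibody, Fcmr, the IgM receptor, fell by 3.07 ± 0.33 with LPS.

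The V segments, which encode the variable part of the chains, gave the same directions as the constant genes of the receptor. Of 36 Ighv segments tested with LPS against PBS, 24 fell and 0 rose, and of 50 Igkv segments 42 fell and 0 rose. Summed Ighv levels were 14.7 to 37.6 CPM with LPS, against 43.8 to 114 CPM with PBS. The highest Ighv segment of a library took 5.57% to 11.1% of its Ighv counts with ALY688+LPS and 6.33% to 10.4% with LPS, against 4.94% to 8.23% with ALY688 and 4.76% to 8.09% with PBS. Ighv counts per library were 101 to 1345 (median 594) with ALY688+LPS and 154 to 1554 with LPS. They were 243 to 1915 (median 1660.5) with ALY688 and 153 to 1756 (median 720) with PBS. A top share is less certain on few counts, and whether these shares differ was not tested. Ighv1-26 had the highest sum, at 7.3% of Ighv counts with ALY688+LPS, 7.53% with LPS, 6.66% with ALY688 and 5.69% with PBS.

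Markers of other blood cells moved in the same comparisons. All 7 neutrophil markers rose with LPS, and their summed level was 4153 to 13422 CPM with LPS, against 567 to 2046 CPM with PBS. Of 11 T cell markers 10 fell, with sums of 102 to 123 CPM with LPS, against 206 to 430 CPM with PBS. NK cell markers rose for 5 of 6, and monocyte markers for 4 of 6. Of 6 platelet markers 2 fell, and of 7 erythroid genes 1 fell. The part of these shifts in the levels of the immunoglobulin genes was not tested.

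Over all 30 libraries, with each group's mean removed, Ighm varied most like Cd79b (Pearson r = 0.97, Spearman rho = 0.975), Cd74 (r = 0.97), Ms4a1 (r = 0.965), Fcrla (r = 0.964) and Cd79a (r = 0.96), among 11512 genes averaging at least 1 CPM. Immunoglobulin genes and Jchain were left out of the genes ranked, so likeness to them is not shown. Of the genes ranked, Jchain varied most like Ambra1 (r = 0.771), Acly (r = 0.771), Cad (r = 0.762), Fbxw8 (r = 0.76) and Zscan22 (r = 0.749). Spearman's rho of these 5 with Jchain ran from 0.599 to 0.691. These are descriptions over 30 libraries that share depth and globin content within a library.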

How the data were processed

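The authors deposited raw read counts, 1 table of all genes per mouse. The submitters' processing notes name HISAT2 2.0.5 (an aligner) and featureCounts 1.5.0-p3 (a read counter). Libraries were made from poly-T-selected RNA with random hexamer priming, according to the labels' protocols. The sources used here do not give the genome build, annotation, strand setting or handling of multi-mapped reads, so reads of overlapping or antisense genes may be mixed. Counts covered 30 of the 34 labelled samples; the other 4 (PBS mouse 10, LPS mice 3, 4 and 5) were not analysed here. GENCODE M21 on GRCm38 named 54495 of 54532 gene IDs.

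Counts were scaled by TMM, filtered with filterByExpr and tested with edgeR 4.0.16 (quasi-likelihood F test, robust) in R 4.3.3, each pair of groups fitted on its own libraries. DESeq2 1.42.0, limma 3.58.1 (voom), other scalings and filters, globin percentage as covariate, mouse number as block and leaving out each library were alternatives. Ratios used 0.5 added to each count. The scripts were tested on simulated data. The genes and lists were chosen with earlier results of these data known. Named genes were all 9 members and, in other lists, up to 4 genes with the smallest unadjusted p, of which some are given. Mzb1, Sdc1 and Prdm1 were added by their levels, outside that rule. No 2 libraries of a group agreed within sampling noise (chi-square per degree of freedom at least 8.02).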

Additional observations from a re-analysis of the deposited data

Results flagged for a closer look

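Single libraries stood apart from the rest of their group in 8 of 56 gene or ratio groups examined. The nominal rate of such flags, about 1 in 20, assumes normally distributed values. All 8 flagged values were the highest of their group on the CPM scale, and the groups share libraries. That rate may therefore not apply, and whether 8 exceeds chance was not tested. ALY688+LPS mouse 4 had 124 CPM of Ighd, against 14.9 to 52.8 CPM in the other 6 libraries, and 29.9 CPM of Iglc2, against 6.63 to 12.8 CPM. ALY688 mouse 8 was highest for 3 genes. It had 70.4 CPM of Igha, against 7.69 to 37.3 CPM in the other 9 libraries, 11.2 CPM of Jchain, against 1.04 to 6.05 CPM, and 6.65 CPM of Ighg2b, against 1.12 to 3.82 CPM. ALY688 mouse 7 had 1.84 CPM of Ighg2c, against 0 to 0.918 CPM, on 7 counts. PBS mouse 9 had 4.50 CPM of Ighg2b, against 0.507 to 2.29 CPM. PBS mouse 6 had 0.225 CPM of Ighg2c, against 0 to 0.103 CPM, which was 1 count. ALY688 mouse 7 and PBS mice 6 and 9 are among the libraries with few detected genes, where 1 count is worth more CPM.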

How the results depend on the processing

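The falls of Ighd and Iglc2 with LPS, and of Ighm, Ighd, Igkc, Iglc1 and Iglc2 with ALY688+LPS against ALY688, kept direction and call in every alternative run. Of 1622 recomputed values, 1531 were classed as unchanged, which for a gene or ratio means the same direction and call. They include counts of called members, which ran from 5 to 8 for LPS against PBS (7 in the main fit). Those for ALY688+LPS against ALY688 also ran from 5 to 8 (6 in the main fit). None of the 57 values that changed sign was a called difference, and the cause was not tested. DESeq2 called 1 member in the interaction, against 0 with edgeR.

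With globin percentage in the fit, signs changed against PBS for ALY688 at Ighd (-0.027), Ighm (-0.0822), Igkc (-0.12) and Iglc2 (-0.0626), for LPS at Ighg2b (-0.99), for ALY688+LPS against ALY688 at Igha (-0.0489) and Jchain (-0.0237), and in the interaction at Igha (0.24) and Iglc1 (0.23). Scaled by library totals alone, ALY688+LPS against LPS gave Igha -0.17, Ighd -0.0381, Ighm -0.18, Igkc -0.10, Iglc1 -0.26 and Iglc2 -0.0744, and the interaction Ighd -0.70, Ighm -0.77, Igkc -0.65 and Iglc2 -0.64; the median of all genes then stood at -0.49 and -0.998. For ALY688+LPS against LPS, limma-voom gave Igha -0.14. The interaction of Iglc1 was 0.0118 by DESeq2 and 0.0553 without the libraries with few detected genes. Without these libraries the log2 ratio differences were -0.45 for lambda to Igkc (ALY688+LPS against ALY688), -0.050 for Igkc to Cd79a (ALY688 against PBS) and 0.14 for Jchain to Cd79a (ALY688+LPS against LPS).

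Leaving out each library gave these ranges. For ALY688+LPS against LPS they were -0.40 to 0.53 (Igha), -0.21 to 0.69 (Jchain), -0.29 to 0.0032 (Ighd to Ighm) and -0.25 to 0.0317 (lambda to Igkc). For ALY688 against PBS they were 0.45 to 0.74 (Igha to Ighm), -0.0203 to 0.0658 (Igkc to Cd79a), -0.0114 to 0.0666 (lambda to Igkc) and 0.90 to 1.31 (Jchain to Cd79a). The adjusted p was 0.0409 for Igha to Ighm without ALY688 mouse 2. For Jchain to Cd79a it was 0.0236 without PBS mouse 9, 0.0444 without ALY688 mouse 2 and 0.0435 without ALY688 mouse 3. Lambda to Igkc ran from -0.47 to -0.31 for ALY688+LPS against ALY688, where Igha ran from 0.57 to 1.39 and Jchain from 0.53 to 1.38. Both were called without ALY688 mouse 8 or ALY688+LPS mouse 8, and Igha also without ALY688+LPS mouse 10. Ighg2b ran from -0.0851 to 0.53 (LPS against PBS), and the interaction from -0.14 to 0.57 (Ighd) and from -0.22 to 0.30 (Iglc1).

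Same-numbered mice did not deviate together (correlations -0.50 to 0.30). Libraries differ in globin share and depth, so these correlations cannot show whether same-numbered mice were the same animals. The labels give only the number. With mouse number as replicate block, 7 members were called for LPS against PBS (1976 genes higher and 1555 lower of 12353) and 5 for ALY688+LPS against ALY688 (2562 higher and 2308 lower of 12266), and for ALY688+LPS against LPS Igha stood at -0.39 and Jchain at -0.46. Depth limits Ighg2c, Ighg2b and Jchain, with single-digit counts in some libraries.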
